A study of Mus musculus with 24 samples.

Results

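The genes described here are 5 Toll-like receptors (Tlr2, Tlr3, Tlr4, Tlr7 and Tlr13), 4 proteins that work beside them in sensing bacterial lipopolysaccharide or its relatives (Cd14, Ly96, Ly86 and Cd180) and the adaptor Myd88. They were chosen by gene symbol for their role in innate sensing, with earlier results of these data known. All 10 were found among the 33000 genes of the deposited table. The libraries were made with 3'Pool-seq, which primes reverse transcription with oligo-dT and keeps only the 3' end of each cDNA, so that a read stands for the end of a transcript. Brains came from C57BL/6 wild-type mice (WT) and from homozygous GFAP-IL6 mice, 3 of each, all at 3 months of age, and RNA was taken from the frontal cortex. GFAP-IL6 mice carry a transgene in which the promoter of Gfap, an astrocyte gene, drives the cytokine gene Il6, and the labels name no other treatment of either group. From every mouse there were 4 libraries, since the cDNA put into tagmentation was 2 ng or 1 ng and both amounts were run in sets labelled A and B, a label whose meaning is not stated.

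Toll-like receptors are membrane receptors that bind conserved microbial molecules. Tlr2 and Tlr4 sit at the cell surface and bind bacterial lipoproteins and lipopolysaccharide, whereas Tlr3, Tlr7 and Tlr13 sit in endosomes and bind double-stranded RNA, single-stranded RNA and bacterial ribosomal RNA. All of them except Tlr3 signal through Myd88 to NF-kB, and in the brain most of these genes are known chiefly from microglia, the resident macrophages.

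Ly86 (chr13:37345208-37419036, plus strand), Cd14 and Tlr13 (chrX:106143204-106160493, plus strand) rose in GFAP-IL6 mice. The rise of Tlr13 passed the thresholds given below with set A alone. With set B alone Tlr13 was higher too but did not pass (log2 fold change 0.93, edgeR adjusted p = 0.655). The other surface genes were Tlr2 (chr3:83836272-83841767, minus strand), Tlr4 (chr4:66827584-66930284, plus strand), Ly96 (chr1:16688051-16709611, plus strand) and Cd180 (chr13:102693558-102739629, plus strand). Tlr3 (chr8:45395665-45411080, minus strand) and Tlr7 (chrX:167304929-167330558, minus strand) were the other endosomal receptors, and Myd88 lies at chr9:119335934-119341411 on the minus strand. These positions are whole protein-coding genes of GENCODE vM21 on mm10, whereas the methods name an earlier release, GENCODE vM6, for the counting of reads, so the exons counted may differ from those described here. Exons of Myd88 share 290 nt (11.3%) with Acaa1a on the other strand and those of Cd180 share 182 nt (4.04%) with Mast4. The stretch in Cd180 begins 250 nt from its 3' end, where 3' reads fall, and that in Myd88 begins 3742 nt upstream of its end on the genome. There the origin of a read cannot be told without strand, and the strand setting of the counting is not given in the sources used here. A search for near-identical copies of the last 300 nt found only the genes that overlap Tlr3, Cd180 and Myd88 on the other strand. By position, only the overlap of Cd180 begins near the 3' end of the gene. That of Tlr3 begins 14455 nt upstream of its end on the genome.

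RefSeq promoters (250 bases before to 50 after the start, GRCm38.p6) were at hand for 6 of the 10 members, namely Tlr2, Tlr3, Tlr13, Ly86, Cd180 and Myd88. They were searched on both strands for letters known from factors of the inflammatory response, and the 30-base stretches below are shown because Tlr13 rose, because Tlr2 is a known NF-kB target and because Myd88 is the shared adaptor. Capitals mark the letters that matched.
Tlr13, PU.1 core, chrX:106143180-106143209, plus strand: aaaaaaagagaaGAGGAAggaaatgtctca
Tlr2, kappaB, chr3:83841762-83841791, minus strand: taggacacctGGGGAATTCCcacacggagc
Myd88, interferon-stimulated response element, chr9:119340039-119340068, minus strand: gagcttctcgGAAAGCGAAAgaaggagggg
Myd88, STAT palindrome, chr9:119340045-119340074, minus strand: agggcggagcTTCTCGGAAagcgaaagaag
The kappaB search (GGG, any 5 bases, CC) also matched Tlr3, and 50.8% of all 32851 promoters held it. The PU.1 core GAGGAA was in 28.3% of promoters, the loose STAT palindrome (TTC, any 3 bases, GAA) in 8.30% and the interferon-stimulated response element in 3.44%. In Myd88 the last letters of the STAT match are the first of the response element. Neither the stricter palindrome (TTCC, any base, GGAA), held by 1.15% of promoters, nor the AP-1 letters TGANTCA, held by 7.81%, occurred in the 6 genes' windows. No searched letters occurred in the windows of Ly86 and Cd180.

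Between 1524165 and 12256374 reads were counted per library and between 7852743 and 37582644 per mouse once its 4 libraries were summed. Levels are given as TMM-scaled CPM, that is, counts scaled to a common library size after edgeR's TMM correction. The third WT mouse stood apart in choroid plexus markers, with a summed level of 4085 CPM over 5 genes against 109 and 164 CPM in the other WT mice and 82.1 to 756 CPM in GFAP-IL6 mice. It also had the smallest total. Il6, the transgene's product, had at most 5 summed counts in a WT mouse and at least 30 in a GFAP-IL6 mouse (log2 fold change 4.06, edgeR adjusted p = 0.000783), and Gfap was higher by 2.44 on the log2 scale (edgeR adjusted p = 1.59e-06). Markers of cortical neurons summed to between 3981 and 4858 CPM in every mouse.

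Of the 10 members, 3 were called higher in GFAP-IL6 mice and 0 lower after summing, where a call needed an adjusted p under 0.05 together with a log2 fold change past 1 in edgeR's quasi-likelihood test. Among all 14621 genes tested 1.20% were called higher. The same 3 passed when no fold was asked for, against 1.74% of all genes. At an unadjusted p under 0.05 there were 8 members higher and 0 lower, but the share of all genes at this level was not taken. This count therefore has no background to be read against. All 10 fold changes were positive (48.1% of all genes), with a median of 1.22 on the log2 scale against -0.01 over all genes. In 9 members the lowest GFAP-IL6 mouse exceeded the highest WT mouse, which held for 8.43% of all genes. With 3 mice against 3 the exact permutation test, two-sided, cannot go below p = 0.1, so that the fit over all genes gives the p-values here. All 10 members passed edgeR's filter on low counts in the summed libraries, which the mice of 1 genotype can meet alone. Tlr4 met it through the GFAP-IL6 mice alone, and Tlr2 and Tlr13 did not meet it through the WT mice alone. The WT counts were 1, 4 and 4 for Tlr4, 11, 9 and 11 for Tlr2, and 14, 17 and 3 for Tlr13. The numbers of members given above include these genes. Members and the pathway lists below were chosen with earlier results of these data known. The shares of all genes are therefore a background for these counts and not an independent test.

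**Figure D1:**
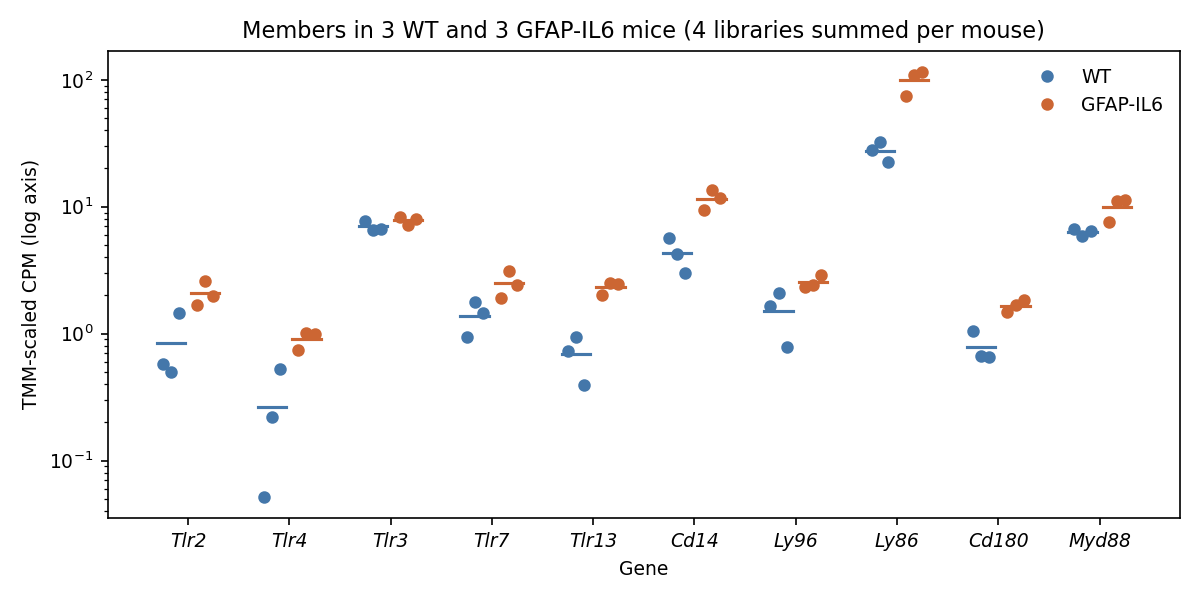
TMM-scaled CPM of the 10 genes on a log axis, 1 point per mouse with its 4 libraries summed, and a line at the mean of the 3 mice of each genotype. Ly86 is the most abundant and Tlr4 the least, and the points of the genotypes overlap only for Tlr3.

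At the start of lipopolysaccharide sensing, Cd14 hands the molecule to Tlr4 and its partner Ly96 (MD-2). Cd14 had 5.72, 4.21 and 3.02 CPM in the 3 WT mice and 9.38, 13.6 and 11.6 CPM in the 3 GFAP-IL6 mice. The genotypes did not overlap, and the mean went from 4.31 ± 1.35 to 11.5 ± 2.12 CPM (SD, n = 3 each). The log2 fold change was 1.37 (SE 0.21), with an adjusted p of 0.00156 from edgeR. Tlr4, the signalling receptor, was scarce, with 1, 4 and 4 summed counts in WT and 7, 21 and 38 in GFAP-IL6 mice. These are 0.0520, 0.221 and 0.525 CPM against 0.738, 1.01 and 0.985 CPM, without overlap. Tlr4 had the highest fitted log2 fold change of the members, 2.13 (SE 0.63), and it did not pass (edgeR adjusted p = 0.146). The ratio of its CPM over all counts of each genotype was 4.78, with a 95% interval from 2.37 to 10.9 that covers counting error only. Ly96, which holds the lipid for Tlr4, had 1.66, 2.10 and 0.787 CPM in WT and 2.32, 2.4 and 2.88 CPM in GFAP-IL6 mice. The lowest WT value was that of the third mouse, with 6 counts. The log2 fold change of Ly96 was 0.66 (SE 0.33, edgeR adjusted p = 0.603).

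Cd180 (RP105) is a relative of Tlr4 without the signalling domain, and Ly86 (MD-1) is its partner, much as Ly96 is that of Tlr4. Ly86 had 28.0, 32.2 and 22.4 CPM in WT and 74.9, 109 and 115 CPM in GFAP-IL6 mice. The lowest GFAP-IL6 mouse was well above the highest WT mouse, and the means were 27.6 ± 4.92 and 99.6 ± 21.6 CPM (SD, n = 3 each). Ly86 rose by 1.84 on the log2 scale (SE 0.15), a fold of 3.59, with an adjusted p of 3.79e-06 from edgeR. Its partner Cd180 had 1.04, 0.664 and 0.656 CPM in WT and 1.48, 1.68 and 1.84 CPM in GFAP-IL6 mice. These values did not overlap either, but they rest on 37 counts in WT and 120 in GFAP-IL6 mice. For Cd180 the log2 fold change of 1.06 (SE 0.38) did not pass (edgeR adjusted p = 0.310).

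Among the endosomal receptors, Tlr13 had 0.728, 0.941 and 0.393 CPM in WT and 2.0, 2.49 and 2.46 CPM in GFAP-IL6 mice. The genotypes did not overlap, and the log2 fold change was 1.66 (SE 0.37, edgeR adjusted p = 0.0276). This call rested on few counts, 34 in WT and 166 in GFAP-IL6 mice. It was lost without the first, the second or the third WT mouse (edgeR adjusted p = 0.106, 0.0506 and 0.0578) and without the second or the third GFAP-IL6 mouse (0.148 and 0.201), and it held without the first GFAP-IL6 mouse (0.0375). Tlr7 had 0.936, 1.77 and 1.44 CPM in WT and 1.90, 3.12 and 2.44 CPM in GFAP-IL6 mice. The gap between the highest WT and the lowest GFAP-IL6 mouse was small, and the log2 fold change of 0.88 (SE 0.34) did not pass (edgeR adjusted p = 0.396). Tlr3 was different in its values, with 7.75, 6.59 and 6.69 CPM in WT and 8.33, 7.14 and 8.04 CPM in GFAP-IL6 mice. Here the genotypes overlapped, and the log2 fold change was 0.15 (SE 0.17) with a 95% interval from -0.18 to 0.47 (edgeR adjusted p = 0.890).

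Tlr2, which pairs with Tlr1 or Tlr6 to bind lipoproteins, had 0.572, 0.498 and 1.44 CPM in WT and 1.69, 2.59 and 1.97 CPM in GFAP-IL6 mice. The third WT mouse lay well above the other WT mice and close to the lowest GFAP-IL6 mouse. The log2 fold change was 1.52 (SE 0.43, edgeR adjusted p = 0.119), and without the third WT mouse it was 1.97 with an adjusted p of 0.0251, which is past both thresholds. Myd88, the shared adaptor, had 6.66, 5.92 and 6.43 CPM in WT and 7.59, 11.1 and 11.4 CPM in GFAP-IL6 mice. WT mice lay within 1 CPM of each other, and the first GFAP-IL6 mouse was close to them. Its log2 fold change of 0.69 (SE 0.18, edgeR adjusted p = 0.0732) was below the threshold of 1, with a 95% interval from 0.34 to 1.05. Leaving out the third WT mouse ended no call of Ly86 or Cd14.

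**Figure D2:**
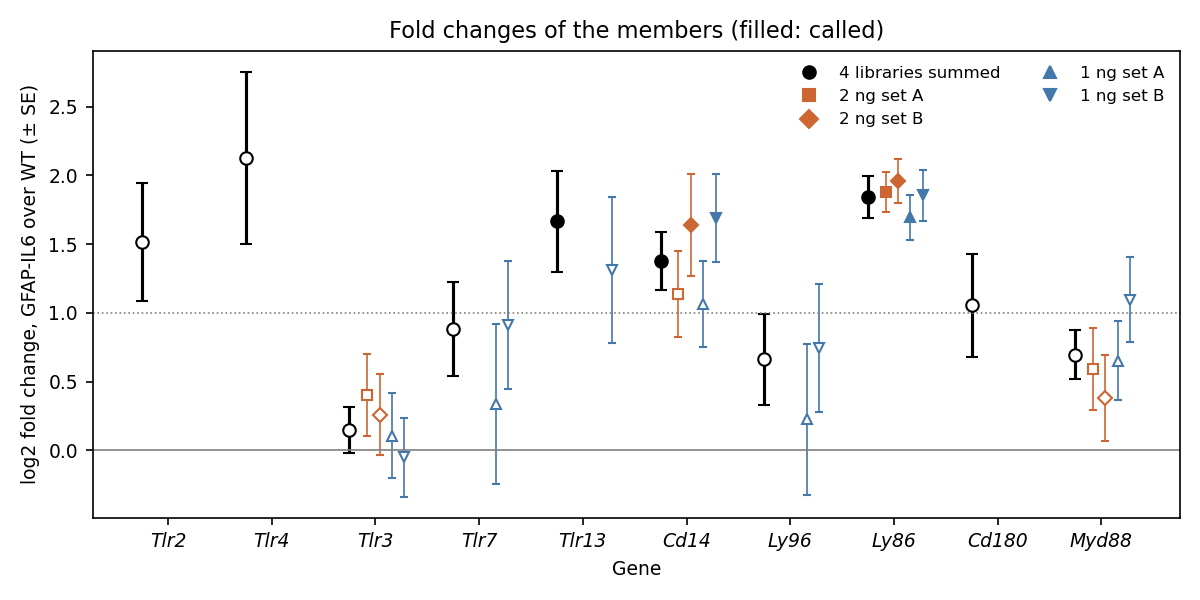
Log2 fold change of GFAP-IL6 over WT with its SE for the summed libraries and, where a gene passed the filter on low counts, for each of the 4 library sets. Filled symbols mark calls and the dotted line marks a log2 fold change of 1. Ly86 lies between 1.70 and 1.96 in all 4 sets, whereas Cd14 is filled only in set B.

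A 3' method gives about 1 fragment end per transcript whatever its length, and the authors did not correct their 3'Pool-seq counts for length. In plain CPM the WT means ran from Ly86 (27.6), Tlr3 (7.01), Myd88 (6.34), Cd14 (4.31) and Ly96 (1.52) to Tlr7 (1.38), Tlr2 (0.838), Cd180 (0.787), Tlr13 (0.688) and Tlr4 (0.266). Levels were also divided by kilobases of counted gene length, a scale that favours short genes. In WT mice the order of the mean level in CPM per kilobase was Ly86 (27.6), Myd88 (3.23), Cd14 (2.74), Ly96 (2.4), Tlr3 (1.59), Tlr7 (0.349), Tlr2 (0.278), Cd180 (0.174), Tlr13 (0.169) and Tlr4 (0.0487). The ranges over WT mice did not overlap between Ly86 and Myd88, between Tlr3 and Tlr7, or between Tlr13 and Tlr4, where the gap was narrow (from 0.0959 to 0.0969). All other neighbours in this order overlapped. Division by length put Tlr3 behind Myd88, Cd14 and Ly96, all of which it led in plain CPM. In GFAP-IL6 mice Ly86 was first and Tlr4 last on both scales, and Cd14 was second on both.

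Each library set was then fitted alone, which asks whether single libraries of 1 set carry the same differences. In 2 ng set A 1 of 4 members that passed the filter was called higher (background 0.681%), and in 2 ng set B 2 of 4 (0.736%). The counts were 1 of 6 in 1 ng set A (0.758%) and 2 of 7 in 1 ng set B (0.748%). Ly86 was called in all 4 sets, with log2 fold changes of 1.88, 1.96, 1.70 and 1.85 in 2 ng set A, 2 ng set B, 1 ng set A and 1 ng set B. Over the 12 WT libraries Ly86 ran from 16.6 to 41.3 CPM with a median of 28.5 CPM, and over the 12 GFAP-IL6 libraries from 64.8 to 152 CPM with a median of 99.8 CPM. No WT library reached any GFAP-IL6 library.

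Cd14 was called in set B only, at 2 ng (log2 fold change 1.64, edgeR adjusted p = 0.0176) and at 1 ng (1.69, adjusted p = 0.00629). In set A its log2 fold change was 1.14 at 2 ng (adjusted p = 0.0940) and 1.07 at 1 ng (adjusted p = 0.137). The first WT mouse had 10.2 CPM at 2 ng and 8.75 CPM at 1 ng in set A, against 1.95 and 3.13 CPM in set B, and the other WT libraries lay between 2.01 and 4.76 CPM. Without that mouse Cd14 was called in both set A fits, with log2 fold changes of 1.94 (edgeR adjusted p = 0.00187) and 1.62 (adjusted p = 0.0232). When only the 2 set A libraries of each mouse were summed, Cd14 was at 1.12 (edgeR adjusted p = 0.0530), and with set B alone at 1.67 (adjusted p = 0.00183). The difference of its genotype effect between sets was 0.52 on the log2 scale (SE 0.33, adjusted p = 1.0 from edgeR's interaction test).

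In WT mice nearly all counts of Tlr13 lay in set B. The 6 WT libraries of set A held 1 count of Tlr13 among 20534592, and the 6 of set B held 33 among 24652786. Every WT mouse had more in set B than in set A, with 0 and 14 counts in the first mouse, 1 and 16 in the second and 0 and 3 in the third. In GFAP-IL6 mice the counts were 74 and 92. Taken as CPM, the ratio of set B to set A was 27.5 in WT (95% interval 4.61 to 1119, counting error only) and 1.10 in GFAP-IL6 mice (0.798 to 1.51). The interaction of genotype and set was -4.28 on the log2 scale (SE 1.16) for Tlr13, with an unadjusted p of 0.000301 from edgeR's quasi-likelihood test, the fourth smallest of 14486 genes. It did not pass the correction over all genes (adjusted p = 0.823). With set A alone the log2 fold change of Tlr13 was 5.14 (edgeR adjusted p = 0.00141), a fitted value that depends on how the near absence in WT is handled, and with set B alone it was 0.93 (adjusted p = 0.655). The call of Tlr13 was thus made with set A alone and not with set B alone, which were fits added after these counts had been seen.

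**Figure D3:**
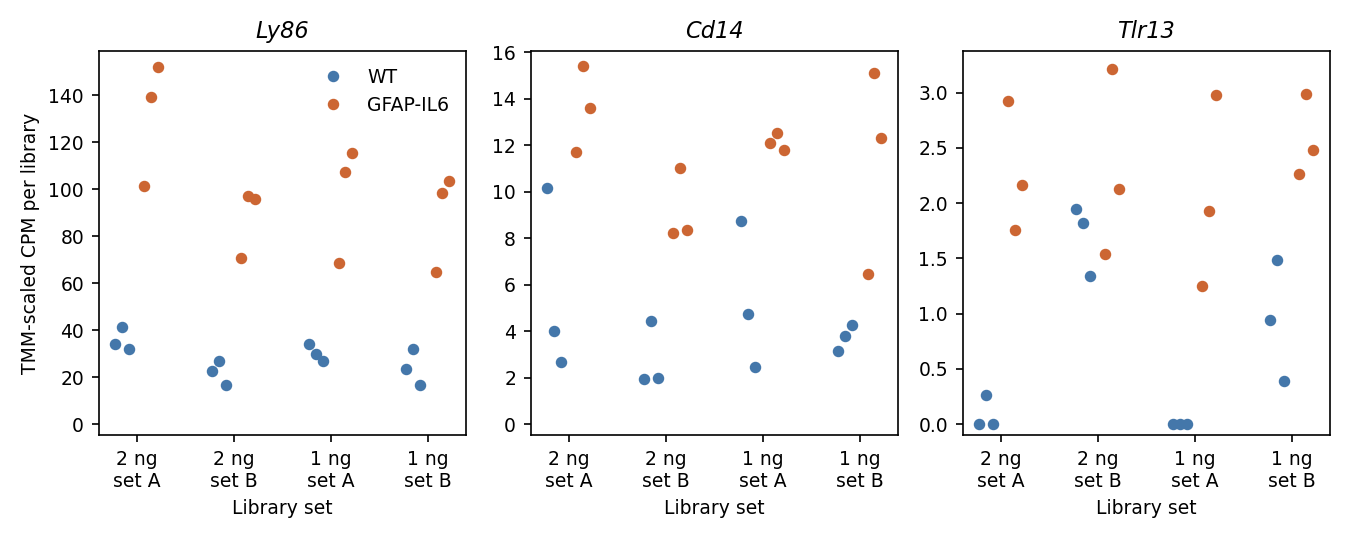
TMM-scaled CPM per library of the 3 called genes in the 4 library sets, 3 WT and 3 GFAP-IL6 libraries in each. Tlr13 lies at or near 0 in the WT libraries of set A and at 0.387 to 1.95 CPM in those of set B, whereas Ly86 keeps its genotypes apart in every set.

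No member had a genotype effect that differed between 1 ng and 2 ng of cDNA after correction (0 of 9 tested, 0 at an unadjusted p under 0.05, background 0%). Between sets A and B the count was 0 of 10 (background 0%), with Tlr13 as the 1 member at an unadjusted p under 0.05. Both were tested by edgeR's quasi-likelihood test with the mouse as a block. The amount of cDNA itself went with a difference in 1 of 9 members, Ly86, which was lower by 0.18 on the log2 scale at 1 ng (log2 difference -0.18, SE 0.045, edgeR adjusted p = 0.000378). Of all 14261 genes tested, 31.2% differed between the amounts. In set B Ly86 had 24.8 CPM over all WT counts against 33.6 CPM in set A, and in GFAP-IL6 mice it had 95.03 against 122.5 CPM, so that both genotypes had less in set B. Among the repeat libraries of a mouse, the counts of Ly86 varied 14.6 times as much as counting error alone gives (chi-square over its 18 degrees of freedom), those of Cd14 3.51 times and those of Tlr13 2.10 times. The median was 2.31 over all genes tested and 1.78 over those under 1000 summed counts, among them Tlr13. The other 7 members lay between 0.729 and 1.68.

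Since these genes are known chiefly from microglia, they were set beside 12 microglia markers. In bulk RNA more cells of a type and more RNA per cell cannot be told apart. The markers together had 456 to 514 CPM in WT and 710 to 922 CPM in GFAP-IL6 mice, and 8 of 12 had an adjusted p under 0.05, all higher. Those called were Aif1, Olfml3 and C1qa, while P2ry12, Gpr34 and Sall1 had log2 fold changes of -0.02, 0.04 and 0.20. Ly86 counts were 5.71% ± 0.87 of the markers' counts in WT and 12.2% ± 1.57 in GFAP-IL6 mice (SD, n = 3 each). The same ratio went from 0.902% ± 0.319 to 1.43% ± 0.24 for Cd14 and from 0.142% ± 0.053 to 0.287% ± 0.024 for Tlr13. In these 3 members the ratios did not overlap between genotypes (two-sided exact permutation p = 0.1 for each, the lowest value this design can give, and 0.25 after Benjamini-Hochberg adjustment over 10 ratios). For Cd14 the gap was narrow, from 1.25% in the highest WT mouse to 1.26% in the lowest GFAP-IL6 mouse. Ratios of all genes to these markers, or to the shorter list below, were not computed. The numbers of members without overlap in such ratios therefore have no background.

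Tlr3 was the 1 member whose ratio was lower in every GFAP-IL6 mouse, at 0.981% ± 0.167 against 1.46% ± 0.21 in WT. The ratios of Tlr2, Tlr4, Tlr7, Ly96, Cd180 and Myd88 overlapped between genotypes. That of Ly96 was 0.313% in both, and that of Myd88 was 1.32% ± 0.16 in WT and 1.23% ± 0.16 in GFAP-IL6 mice (SD, n = 3 each). The markers are themselves not constant. Against the 6 markers Cx3cr1, P2ry12, Tmem119, Sall1, Siglech and Gpr34 alone, a choice made after the values were seen, Ly86, Cd14, Tlr13, Tlr4 and Cd180 lay above WT in every GFAP-IL6 mouse, and Tlr3 overlapped. The lower ratio of Tlr3 thus depended on the markers chosen.

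**Figure D4:**
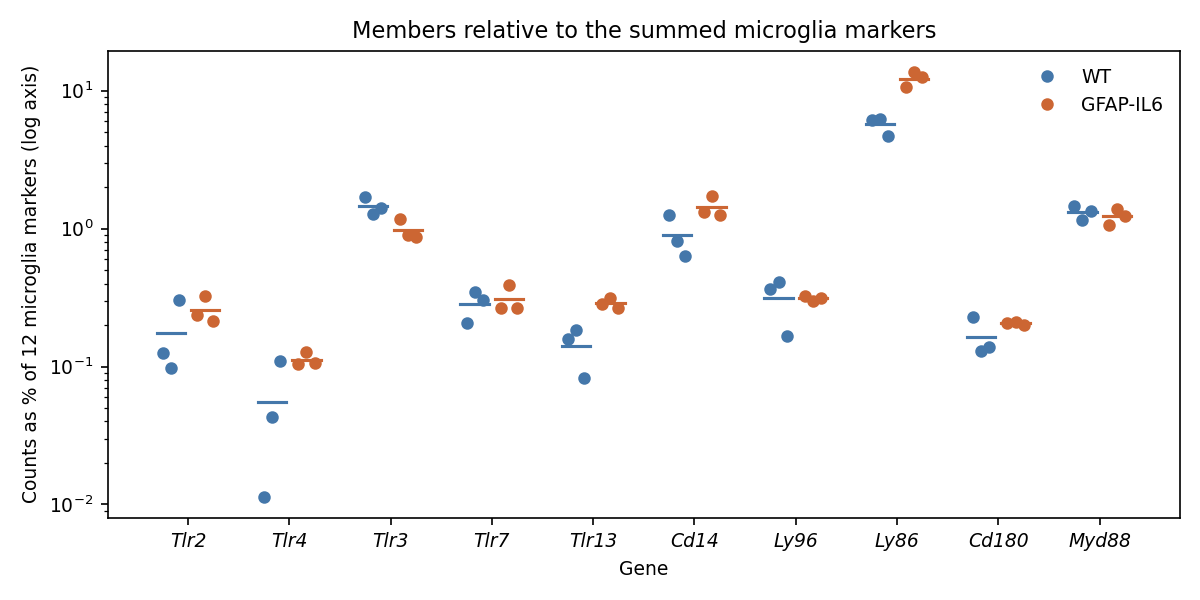
Counts of each gene as a percentage of the summed counts of 12 microglia markers, on a log axis, 1 point per mouse and a line at each mean. Ly86, Cd14 and Tlr13 lie higher in all 3 GFAP-IL6 mice, Tlr3 lies lower, and the other 6 overlap.

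Markers of other immune cells, endothelial cells and astrocytes differed in level. Those of endothelial cells and astrocytes summed to more than the 10 members did, and those of the other immune cells to less. Monocyte markers summed to 0.262 to 0.720 CPM in WT and 0.949 to 2.31 CPM in GFAP-IL6 mice over 5 genes, of which 1 passed the filter and 0 were called by edgeR or DESeq2 (0 at an unadjusted p under 0.05). Neutrophil markers had 0.525 to 3.71 CPM in WT and 2.0 to 6.14 CPM in GFAP-IL6 mice, and Ly6g, a defining marker, was at 0 in every library. Border macrophage markers had 13.9 to 16.3 CPM and 12.1 to 16.98 CPM, with 0 of 8 called (edgeR and DESeq2, 0 higher and 1 lower at an unadjusted p under 0.05). Lymphocyte markers had 0.918 to 4.32 CPM and 3.03 to 3.48 CPM. The summed level of the 10 members was 43.8 to 55.1 CPM in WT and 110 to 159 CPM in GFAP-IL6 mice. Endothelial markers had 96.9 to 106 CPM in WT and 121 to 199 CPM in GFAP-IL6 mice, with 2 of 6 at an adjusted p under 0.05 and 0 called by edgeR or DESeq2 (4 higher at an unadjusted p under 0.05). Astrocyte markers had 1339 to 1447 CPM in WT and 1497 to 1628 CPM in GFAP-IL6 mice. Of these 7 genes 0 were called by edgeR or DESeq2 (2 higher at an unadjusted p under 0.05). The part of any of these cells in the members' levels was not tested.

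The rest of the pathway was described by 67 genes in 8 lists, of which 50 passed the filter on low counts. In edgeR 3 of the 50 were called higher, against 1.20% of all genes, and 0 lower (DESeq2 called 3 higher and 0 lower). At an unadjusted p under 0.05 there were 15 higher and 0 lower, a count for which no share of all genes was taken. Fold changes were positive for 35 of the 50 (48.1% of all genes). Their median was 0.21 on the log2 scale, against 1.22 for the members and -0.01 over all genes. The called genes were Unc93b1, Irf8 and Icam1. Without the third GFAP-IL6 mouse only Icam1 was called, since Unc93b1 and Irf8 then had log2 fold changes of 0.98 and 0.999 (edgeR adjusted p = 0.00109 and 0.0645), just under the threshold of 1.

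Unc93b1, which carries the endosomal receptors Tlr3, Tlr7 and Tlr13 out of the endoplasmic reticulum, had 14.8, 13.6 and 16.5 CPM in WT and 29.6, 28.9 and 36.6 CPM in GFAP-IL6 mice. The genotypes lay far apart, with a log2 fold change of 1.11 (SE 0.13, edgeR adjusted p = 0.000138). The other 5 genes of delivery, folding and trafficking (Lbp, Hsp90b1, Cnpy3, Cnpy4 and Scarb1) had log2 fold changes from -0.07 to 0.65 and did not pass. Irf8, a transcription factor of the macrophage lineage, had 4.73, 5.26 and 3.54 CPM in WT and 7.27, 10.9 and 13.9 CPM in GFAP-IL6 mice. Its log2 fold change was 1.24 (SE 0.22, edgeR adjusted p = 0.00612), and the other interferon regulatory factors Irf3, Irf5 and Irf7 had values of 0.30, 0.82 and 0.93 that did not pass. Icam1, an adhesion molecule and NF-kB target, had 1.09, 2.71 and 1.44 CPM in WT and 5.38, 6.85 and 8.89 CPM in GFAP-IL6 mice (log2 fold change 2.01, SE 0.31, edgeR adjusted p = 0.00153).

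Downstream of the receptors, no further gene was called. Of 12 genes of the IRAK, TRAF and TAK1 complex, 0 were called by edgeR or DESeq2 (1 at an unadjusted p under 0.05), with a median log2 fold change of 0.01. The 12 IKK and NF-kB genes tested had a median of 0.21 and 0 calls (2 at an unadjusted p under 0.05), and Nfkbia, the inhibitor that NF-kB itself induces, was at 0.44 (edgeR adjusted p = 0.0864). Adaptors other than Myd88 had 0 of 3 called (0 at an unadjusted p under 0.05), and negative regulators 0 of 7 (2 higher). Of the NF-kB and Toll-like receptor response genes only 5 of 12 passed the filter. Besides Icam1 these were Il1b, Nfkbiz, Ptgs2 and Sod2, with log2 fold changes of 0.89, 0.39, 0.35 and -0.02 that did not pass. Sod2 was well counted, at 135 CPM in WT and 133 CPM in GFAP-IL6 mice. Tnf had 0 counts in WT and 7 in GFAP-IL6 mice, and Ifnb1 was at 0 in every library, so that changes in Tnf and Ifnb1 were not detectable at this depth.

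Other Toll-like receptors were near the limit of detection. Tlr1, a partner of Tlr2, had 5, 12 and 0 summed counts in WT and 5, 19 and 49 in GFAP-IL6 mice, and it was the only one to pass the filter (log2 fold change 1.40, SE 0.61, edgeR adjusted p = 0.517). Tlr6, the other partner, had 3, 2 and 10 counts in WT and 3, 9 and 10 in GFAP-IL6 mice, and Tlr12 had 9, 3 and 0 against 6, 18 and 8. Tlr9 had 2 counts in WT and 9 in GFAP-IL6 mice, Tlr5 and Tlr11 had 2 counts each, all in GFAP-IL6 mice, and Tlr8 had none in any library. Tlr1 was higher at an unadjusted p under 0.05 in edgeR's test but did not pass after adjustment. For the Toll-like receptors that failed the filter, counts this low do not allow the genotypes to be compared.

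**Figure D5:**
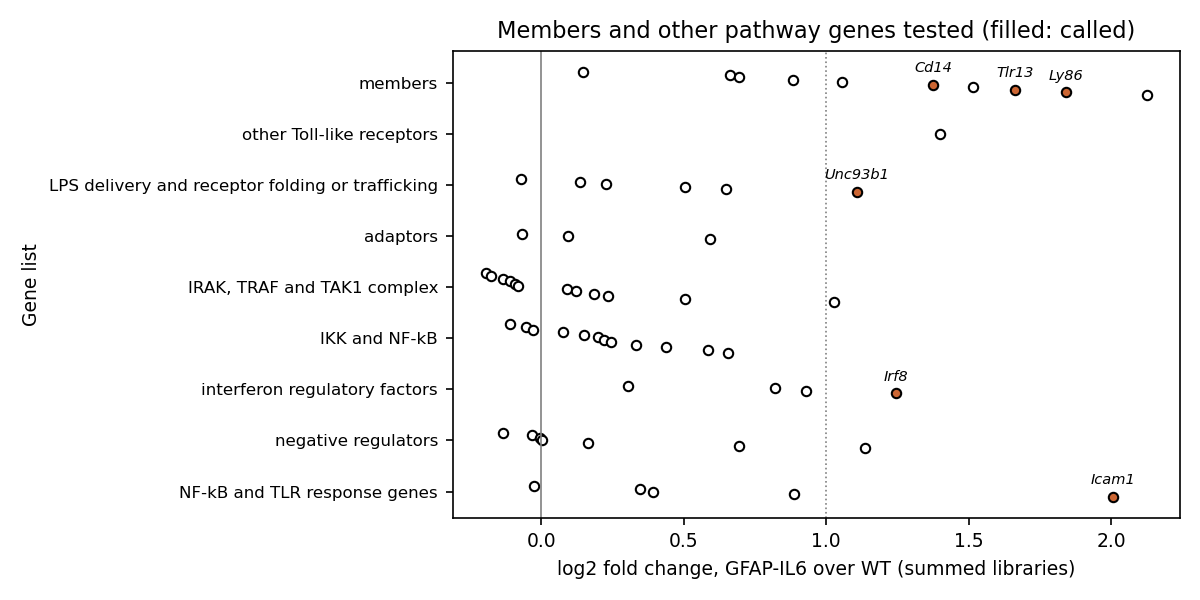
Log2 fold change of GFAP-IL6 over WT in the summed libraries for the 10 members and the 50 other pathway genes that passed the filter, by list. Filled points are called and the dotted line marks a log2 fold change of 1. The members lie between 0.15 and 2.13, and 3 of the other genes are filled.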

How the data were processed

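Frontal cortex RNA of 6 mice was measured in 24 3'Pool-seq libraries. According to the methods, the authors trimmed polyA stretches, aligned reads to mm10 with STAR 2.4 (the labels list another build beside this aligner) and counted uniquely aligned reads on GENCODE vM6 genes with featureCounts. Counts were deposited by the authors as raw read numbers for each gene, with gene lengths. Groups came from the labels. The 4 libraries of a mouse share its RNA, so their counts were summed and the mouse was the replicate. Genotypes were compared with edgeR 4.0.16 (quasi-likelihood test, TMM, filterByExpr, Benjamini-Hochberg adjustment over all genes) in R 4.3.3. Called genes had an adjusted p below 0.05 with a log2 fold change past 1 in either direction. The methods name DESeq2, which was an alternative (version 1.42.0), as was limma 3.58.1. Other alternatives were size factors, library totals, filters, thinning to equal depth, other thresholds, the replicate number as a block, omission of each mouse in turn and, added later, single sets and a shorter marker list. Exact permutation tests, intervals and motif searches used Python 3.11.15 with scipy 1.17.1. The fits were tested on simulated data with changes planted only in well-counted genes. That test therefore does not cover members with few counts, such as Tlr13. Reads carried no molecular identifiers, so PCR copies are not independent, and the intervals of ratios of counts cover counting error only. The intervals of log2 fold changes were taken from edgeR's SE with a normal quantile. They are therefore somewhat narrower than edgeR's test implies. Same-numbered mice did not deviate together, so no pairing was used. All 10 members were named, with pathway genes that were called, every other Toll-like receptor, Il6 and Gfap. The members, lists and tests were chosen with earlier results of these data known. Columns of gene annotation other than length were used for names only, and RefSeq promoters were searched for motifs by their letters.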

Additional observations from a re-analysis of the deposited data

How the results depend on the processing

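In the summed libraries the count of called members, 3, ranged from 2 to 4 over all alternatives, Ly86 was called in 16 of 16 and Cd14 in 15 of 16, failing with set A alone at an adjusted p of 0.0530. Cd14 was also under the fold asked for with thresholds of 0.1 and 1.5. Tlr13 was called in 7 of the 14 alternatives that tested it, and with same-numbered mice as a replicate block its adjusted p was 0.0792, leaving 2 members called. The numbers showed no pairing (correlations of deviations -0.049, -0.032 and -0.034), and the block moved the count of all called genes from 180 to 150. In the single sets, dropping the filter gave 3 called members in 2 ng set A and 3 in 1 ng set A in place of 1. In 2 ng set B, with 2 in the main analysis, the count was 1 with at least 10 counts in every column, with DESeq2, with the block and with thinning, and in 1 ng set A DESeq2 gave 2. Leaving out 1 mouse gave 1 to 2 called members in 2 ng set A, 2 ng set B and 1 ng set A, and 1 to 3 in 1 ng set B, where Myd88 was the third without the first WT mouse (log2 fold change 1.54, adjusted p = 0.0401). Pathway calls went from 3 to 1 without the third GFAP-IL6 mouse (1 to 3 over the mice left out), and to 1 with thresholds of 0.1 and 1.5. All called genes ranged from 106 to 201 when 1 mouse was left out, lowest without the third GFAP-IL6 mouse, and were 97 with thresholds of 0.1 and 1.5. With the 6 homeostatic microglia markers alone, added after seeing the data, 5 members lay above WT in every GFAP-IL6 mouse in place of 3. Tlr2 was called in 2 of 14 alternatives, without the third WT mouse (adjusted p = 0.0251) and without the filter (0.0209). On the summed libraries every alternative gave a positive log2 fold change for each member it tested, whereas Tlr3 in 1 ng set B alone had -0.05 (adjusted p = 0.987). Members with 9 to 76 counts in WT (Tlr2, Tlr4, Tlr7, Tlr13, Ly96 and Cd180) are limited by depth. The causes of these changes were not tested.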
